A study of Mus musculus with 12 samples.

Results

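Full-thickness skin and epidermis of newborn mice labelled Krt1-/-, the keratin 1 null genotype, were compared gene by gene on 6 bead arrays, chosen by their titles from the 12 arrays of the series. The first 3 arrays hold RNA of full-thickness skin labelled Krt1-/-, and the other 3 hold RNA of epidermis labelled Krt1-/-. All came from C57BL/6 mice at postnatal day 0. The series also holds 3 arrays of epidermis and 3 of full-thickness skin from Krt1+/+ mice of the same strain and age, which serve here as the reference for a tissue difference with keratin 1 present. Full-thickness skin contains the epidermis together with the dermis and whatever lay beneath it. The labels do not say how the null allele was made, how the epidermis was separated, or whether each array had an animal of its own. The p-values thus reflect the scatter among these samples, which could be technical.

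Keratin 1 pairs with keratin 10 to form the intermediate filaments of the suprabasal epidermis. As these cells move outwards they build the cornified envelope, in which involucrin, loricrin, small proline-rich proteins and late cornified envelope proteins are cross-linked by transglutaminases, and they secrete ceramides and cholesterol that seal the space between cells. Keratinocytes also make cytokines and alarmins such as interleukin 1, interleukin 18, interleukin 33, thymic stromal lymphopoietin and the S100 proteins, which signal barrier damage to the dermis and its immune cells.

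Values are normalized log2 intensities, so a difference of 1 is a doubling. A probe was kept when its signal exceeded background (detection p under 0.05) on at least 3 of the 12 arrays, and 12099 genes were tested. A gene was called when limma's adjusted p, by Benjamini-Hochberg over all these genes, was under 0.05. Between 17184 and 19609 of 45281 probes were detected on each of the 6 Krt1-/- arrays. Arrays within a group correlated at 0.966 to 0.986 across genes, against 0.849 to 0.917 between Krt1-/- skin and Krt1-/- epidermis.

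The arrays labelled Krt1-/- epidermis kept a high signal for Krt1. Its log2 intensity was 10.06, 11.23 and 9.55 on those arrays and 7.45, 8.24 and 6.55 in Krt1-/- skin, so the tissues did not overlap. On the Krt1+/+ arrays it averaged 11.36 in epidermis and 12.12 in skin. Krt1 was thus 7.31-fold lower in Krt1-/- skin than on the arrays labelled Krt1-/- epidermis (log2 difference −2.87, 95% confidence interval −4.13 to −1.61, adjusted p = 0.00178). The Krt1 signal on the latter did not pass the test against Krt1+/+ epidermis (−1.08, adjusted p = 0.183). Taken alone, that goes against their label. The small proline-rich list summed on the linear scale to 33410 to 35942 in Krt1-/- epidermis and 3197 to 4884 in Krt1+/+ epidermis. In Krt1-/- skin it summed to 34461 to 52332. The suprabasal list summed to 98763 to 105970 in Krt1-/- epidermis and 91112 to 108063 in Krt1+/+ epidermis, which overlap. What these sums mean for the labels was not tested. The sources used here do not say whether the allele removes the sequence under the probe. Every direction below that involves these 3 arrays rests on their labels.

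The 2 Krt1-/- groups also fall in different array sets. Krt1-/- skin and Krt1+/+ epidermis fill the first 6 columns of the deposited table, and Krt1-/- epidermis and Krt1+/+ skin fill the last 6. Over 16240 probes that were undetected on every array, the groups sharing a set correlated at −0.0261 and −0.0369 on average and groups of different sets at −0.152 to −0.131. Within Krt1-/-, tissue and array set therefore cannot be told apart. The mean of the Krt1-/- and the Krt1+/+ tissue differences, called the balanced contrast here, cancels a set difference that adds equally to all arrays of a set, and it is given beside the class counts and many of the named genes. It uses the same 6 arrays and the 6 Krt1+/+ arrays, so part of its calls follow from the Krt1-/- contrast itself.

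Of the 12099 genes, 4776 (39.5%) were called between Krt1-/- skin and Krt1-/- epidermis. Expression was higher in skin for 2341 (19.3%) and higher in epidermis for 2435 (20.1%). These 2 shares are the reference for every list count below, and a count near them is no trait of its list. The changes towards skin were larger, with 1371 genes over 2-fold against 843 towards epidermis. The median over all genes was −0.04. The 3 skin arrays lay above the 3 epidermis arrays for 23.8% of genes and below them for 25.9%. In Krt1+/+ mice, on arrays that are all different, 2395 genes (19.8%) were higher in skin and 2656 (22.0%) higher in epidermis. Of the genes called higher in Krt1-/- skin, 1108 were also called higher in Krt1+/+ skin, which is 47.3% of the first list and 46.3% of the second, while 640 (27.3%) were called in the opposite direction. Of those called higher in Krt1-/- epidermis, 568 were also called higher in Krt1+/+ epidermis, 23.3% of the first list and 21.4% of the second, and 317 were called the opposite way. In the balanced contrast, 2257 genes (18.7%) were higher in skin and 2872 (23.7%) higher in epidermis. It called 62.9% of the genes higher in Krt1-/- skin and 62.7% of those higher in Krt1-/- epidermis in the same direction, which is the reference for the shares of lists below. The difference between the Krt1-/- and Krt1+/+ tissue contrasts passed the test for 3739 genes (30.9%). That comparison also carries the difference between the array sets, so it is not a measure of genotype alone.

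**Figure D1:**
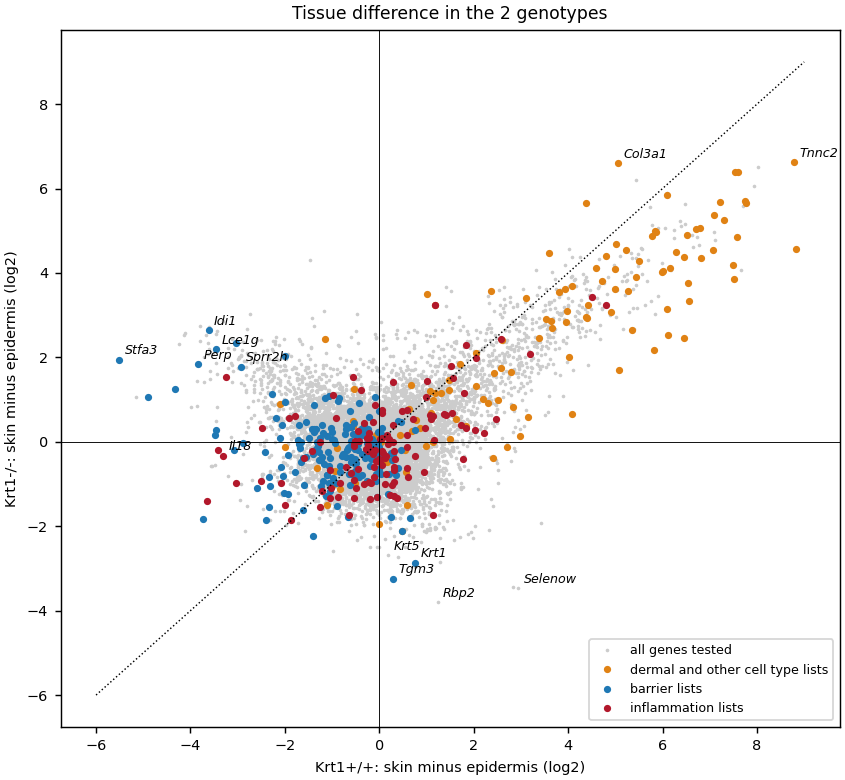
Each point is a gene, placed by its log2 skin minus epidermis difference in Krt1+/+ (horizontal axis) and in Krt1-/- mice (vertical axis), with dermal, barrier and inflammation lists coloured; the dotted line marks equal differences. Most genes of the dermal lists lie in the upper right, with Tnnc2 at 6.62 in Krt1-/- mice. Of these 123 genes, 84 were called higher in Krt1-/- skin, 8 higher in Krt1-/- epidermis and 31 were not called. Stfa3 (−5.51 in Krt1+/+ and 1.94 in Krt1-/- mice) and Selenow (2.94 and −3.47) lie on opposite sides of 0 in the 2 genotypes.

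Skeletal muscle contractile genes stood highest in Krt1-/- skin. The 12 named genes with the largest differences towards skin ran from 50.6-fold to 98.2-fold, and 7 of them belong to the skeletal muscle list. All 12 were also called higher in skin in Krt1+/+ mice and in the balanced contrast. Promoter windows of a pair of these genes are printed here because both genes are among the 12 and hold the 6-base E-box CAGCTG, which is bound by muscle regulatory factors. The windows are RefSeq's for build GRCm38.p6, 250 bases before to 50 after the gene start, 5′ to 3′, with the E-box in capitals. Atp2a1 lies at chr7:126463024-126463323, minus strand, and Mylpf at chr7:127211358-127211657, plus strand.
Atp2a1: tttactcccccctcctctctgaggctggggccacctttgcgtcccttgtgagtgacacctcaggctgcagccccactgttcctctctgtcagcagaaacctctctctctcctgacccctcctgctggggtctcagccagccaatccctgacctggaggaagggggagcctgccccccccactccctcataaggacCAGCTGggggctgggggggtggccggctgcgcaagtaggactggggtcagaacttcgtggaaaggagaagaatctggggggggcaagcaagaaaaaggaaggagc
Mylpf: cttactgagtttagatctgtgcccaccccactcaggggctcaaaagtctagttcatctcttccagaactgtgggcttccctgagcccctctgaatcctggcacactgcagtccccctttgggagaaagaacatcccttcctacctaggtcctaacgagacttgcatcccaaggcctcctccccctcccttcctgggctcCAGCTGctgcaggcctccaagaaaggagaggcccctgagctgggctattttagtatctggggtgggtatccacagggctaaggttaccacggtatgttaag
The E-box, searched on both strands and identical to its own reverse complement, occurred in 9 of 19 skeletal muscle genes with a window (47.4%) and in 4944 of all 27025 genes with a window, leaving out one chromosome (18.3%). A match is a description of these letters only.

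Atp2a1, the calcium pump of fast muscle, was at 11.98, 13.67 and 12.39 in Krt1-/- skin and at 7.22, 5.52 and 6.13 in Krt1-/- epidermis. Tnnc2, the fast troponin C, was at 12.16, 12.88 and 11.93 in skin and at 7.29, 4.43 and 5.40 in epidermis. Neither gene's arrays overlapped between tissues, which the rule for the 12 genes required. Tnnc2 was 98.2-fold higher in skin (6.62 ± 0.53 SE, adjusted p = 1.14e-06), and Atp2a1 was 83.9-fold higher (6.39 ± 0.45, adjusted p = 5.95e-07). The other muscle genes among the 12 were Acta1 (skeletal actin, 84.1-fold), Mylpf (fast regulatory light chain, 57.8-fold), Tnnt3 (fast troponin T, 52.5-fold), Actn2 (Z-disc actinin, 51.7-fold) and Myh8 (perinatal myosin heavy chain, 50.6-fold). Actc1, cardiac actin, and Sln, which regulates the calcium pump, are not on the list and were 91.6-fold and 66.9-fold higher. Over the whole list, 19 of 21 genes were higher in skin, none was higher in epidermis, and the median was 4.87, against −0.04 over all genes.

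Collagens and other dermal matrix genes were also higher in skin. Col3a1, a fibrillar collagen of the dermis, was at 12.90, 12.59 and 12.98 in skin and at 6.66, 4.67 and 7.36 in epidermis. On the probe used it was 96.7-fold higher, the second largest of the 12 (6.59 ± 0.47, adjusted p = 5.95e-07). Another kept Col3a1 probe gave a smaller difference in the same direction (1.07, adjusted p = 0.0124). All 9 measured collagens were called higher in skin, with a median of 3.68, among them Col1a2 (50.6-fold), Col6a1 (32.9-fold) and Col1a1 (23.9-fold). Of 19 other matrix and fibroblast genes, 15 were higher in skin and none in epidermis (median 3.32). Dpt, which encodes dermatopontin, was 31.9-fold higher, Pdgfra, a fibroblast receptor, 31.2-fold, and Lox, the collagen cross-linking lysyl oxidase, 23.3-fold.

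Vessel, immune and fat cell genes followed the same direction. Of 15 endothelial genes 13 were higher in skin (median 2.92). Lyve1, a lymphatic endothelial marker, was 25.8-fold higher. Cdh5, the endothelial cadherin, was not detected on any Krt1-/- epidermis array and was at least 6.06-fold higher in skin, with Krt1-/- epidermis set at its detection limit. Of 9 mast cell genes 8 were higher in skin (median 2.93), including Hdc, the histamine-forming enzyme, at 20.7-fold and Cma1, a chymase, at 14.5-fold. Of 13 macrophage and dendritic genes 6 were higher in skin and 1 in epidermis (median 0.89). Mrc1, a mannose receptor of tissue macrophages, was higher in skin by 3.81 on the log2 scale, whereas Cd74, the invariant chain of antigen-presenting cells, was 2.83-fold higher in epidermis. Of 11 adipocyte genes 8 were higher in skin and 1, Cebpa, in epidermis (median 1.84). Plin4 was 21.1-fold and Lpl 23.3-fold higher in skin. Of 10 pericyte and smooth muscle genes 5 were higher in skin and 1 in epidermis (median 0.66), of 5 nerve and Schwann cell genes 2 and 1 (median −0.16), and of 4 erythroid genes none passed (median 0.90). Pmp22, a myelin protein that fibroblasts also express, was 16.9-fold higher in skin. Pf4, the platelet chemokine, was on no list and was 73.2-fold higher in skin.

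The tissue labels can be read from the summed linear levels of these lists. Collagens summed to 20207 to 22827 in Krt1-/- skin, 497 to 1687 in Krt1-/- epidermis, 36723 to 42165 in Krt1+/+ skin and 918 to 1290 in Krt1+/+ epidermis. Skeletal muscle genes summed to 74404 to 127690 in Krt1-/- skin and 1117 to 5436 in Krt1-/- epidermis, against 992 to 1447 in Krt1+/+ epidermis. Dermal transcripts were therefore low but measurable in the epidermis arrays. In bulk tissue, fewer cells of a type and less RNA per cell cannot be told apart. Over all dermal and other cell type lists together, 84 of 123 genes were higher in skin, 8 in epidermis, and 83 of the 84 were also called higher in skin in the balanced contrast, against 62.9% over all such genes. The count towards epidermis was 5 without skin replicate 1.

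**Figure D2:**
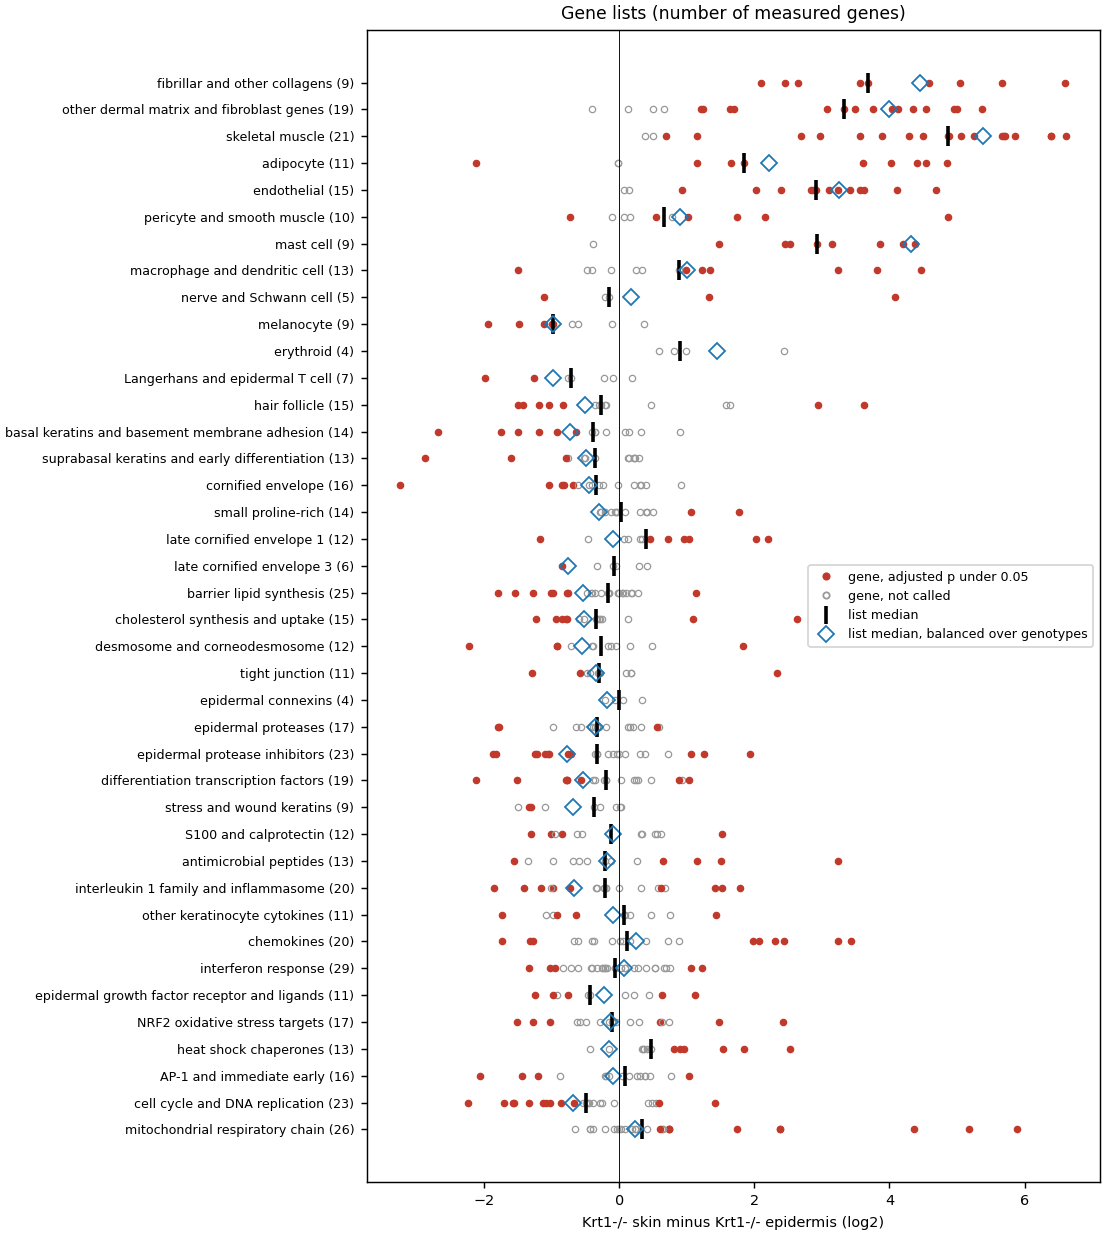
Each circle is a gene of the list named on the left, placed by its log2 difference Krt1-/- skin minus Krt1-/- epidermis; filled circles passed the test, black bars are list medians and open diamonds are list medians in the balanced contrast. The skeletal muscle (4.87), collagen (3.68), mast cell (2.93) and endothelial (2.92) medians lie far to the right, and barrier and inflammation medians lie between −0.44 and 0.40.

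Brown adipocyte genes were highest on 1 array of Krt1-/- skin. Among the Krt1-/- skin arrays, replicate 3 was the highest for 8 of 9 such genes, although Ppargc1a and Dio2 reached only 5.54 and 5.40 there, and Elovl3 was highest on replicate 2 (5.38). Ucp1, the uncoupling protein of brown adipocytes, was at 5.72, 5.18 and 11.62 in Krt1-/- skin, and at 6.24 to 7.55 in Krt1+/+ skin. Cidea, a lipid droplet protein abundant in brown fat, was at 6.75, 6.75 and 11.72. Replicate 3 was the high array for both. Cidea was at 7.10 to 7.23 in Krt1-/- epidermis and did not pass the test (adjusted p = 0.337). Ucp1 was not detected on any Krt1-/- epidermis array and was at least 7.07-fold higher in skin (adjusted p = 0.0416), a call that was lost without any one of the 3 epidermis arrays (adjusted p = 0.0762 to 0.0952). These brown adipocyte genes were chosen after their values were seen. Cox8b, a respiratory subunit of muscle and brown fat, was at 9.90, 9.92 and 12.68, and its 59.3-fold difference became 31.3-fold without replicate 3. Of 26 respiratory chain genes, 10 were higher in skin and none in epidermis (median 0.33). Without replicate 3 these numbers became 7 and 3 (median −0.07). The adipocyte list kept 8 genes higher in skin, with a median of 1.37.

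Genes higher in Krt1-/- epidermis showed smaller differences. The 12 named genes with the largest differences ran from 5.62-fold to 13.9-fold. In Krt1+/+ mice 9 of them had a difference of the opposite sign. In the balanced contrast 9 of the 12 were called higher in epidermis. Rbp2, a retinol-binding protein, was at 9.86, 9.82 and 9.44 in epidermis and at 5.85, 6.30 and 5.57 in skin (13.9-fold, adjusted p = 5.22e-05). Its Krt1+/+ difference was 1.24 in the other direction. Selenow, a small selenoprotein, and Ptms, parathymosin, were 11.1-fold and 10.8-fold higher in Krt1-/- epidermis, and in the balanced contrast they did not pass (adjusted p = 0.566 and 0.548). Tnfrsf18, a receptor of the tumour necrosis factor family, was 6.01-fold higher in Krt1-/- epidermis and lay in the same direction in Krt1+/+ mice (−0.98).

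Basal keratinocyte genes were higher in epidermis for 6 of 14 and in skin for none (median −0.38). Krt5, the basal partner of keratin 14, was at 12.53, 12.87 and 12.52 in epidermis and at 9.94, 10.60 and 9.31 in skin, without overlap. It was 6.44-fold higher in epidermis (−2.69 ± 0.36, adjusted p = 8.6e-05). In Krt1+/+ mice the difference was 0.19, and the balanced contrast was −1.25 (adjusted p = 0.00163). Krt14 differed by 0.08 (95% confidence interval −0.30 to 0.46, adjusted p = 0.751). Krt15, another basal keratin, was 3.36-fold higher in epidermis, Lamb3, a chain of laminin 332, 2.82-fold, and Trp63, the regulator of stratification, 1.90-fold. Of 23 cell cycle genes 10 were higher in epidermis and 2 in skin (median −0.49), with Mcm3, a replicative helicase subunit, at 4.72-fold and Cdk1 at 3.26-fold. Pcna, the replication clamp, was 2.68-fold higher in skin, and in the balanced contrast it was lower in skin (−1.14).

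Melanocyte and hair follicle genes divided. Of 9 melanocyte genes 5 were higher in epidermis and none in skin (median −0.98), including Mlana (3.84-fold) and Pmel (2.80-fold), both melanosome proteins, and the balanced contrast called all 5. Of 15 hair follicle genes 5 were higher in epidermis, among them Shh (2.68-fold), its receptor Ptch1 (2.81-fold) and Sostdc1 (2.06-fold). The inner root sheath keratins Krt27 (7.71-fold) and Krt71 (12.3-fold) were higher in skin. Krt27 was at 9.32, 11.73 and 11.24 in skin and at 9.24, 7.12 and 7.08 in epidermis, so the lowest skin array lay close to the highest epidermis array. Krt27 lost its call without Krt1-/- skin replicate 2, Krt1-/- epidermis replicate 2 or Krt1-/- epidermis replicate 3 (adjusted p = 0.0524 to 0.0574), and Krt71 without replicate 2 of either tissue or skin replicate 3 (0.0538 to 0.0704). The hair follicle list had 0 genes towards skin without skin replicate 2 or epidermis replicate 2, and 4 or 5 without replicate 1 of either tissue, and the melanocyte list had 3 towards epidermis without replicate 1 of either tissue. Of 7 Langerhans and epidermal T cell genes, Skint1 and Skint9 were higher in epidermis (median −0.72), and none was called without epidermis replicate 1. All 7 had their highest mean in Krt1+/+ epidermis, where they summed to 2684 to 5151, against 485 to 1567 in Krt1-/- epidermis and 194 to 402 in Krt1-/- skin.

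Of 187 measured genes on the barrier lists, 44 (23.5%) were higher in Krt1-/- epidermis, 19 (10.2%) were higher in Krt1-/- skin and 124 were not called. The shares over all genes were 20.1% and 19.3%, so the share towards epidermis lay near that of all genes. The median was −0.20, against −0.04 over all genes. The balanced contrast called 37 of the 44 in the same direction (62.7% over all genes called towards epidermis). It called none of them in the opposite one (12 of 2435 over all genes). Of the 19 higher in Krt1-/- skin it called none in that direction (62.9% over all genes called towards skin). It called 9 in the opposite direction (172 of 2341 over all genes). The count towards epidermis was 27 without Krt1-/- skin replicate 3, with 21 towards skin. By group means, 93 of the 187 genes (49.7%, against 29.9% of all genes) were highest in Krt1-/- epidermis and 38 (20.3%, against 13.4%) in Krt1-/- skin. Krt1+/+ epidermis held the highest mean for 51 (28.4% of all genes) and Krt1+/+ skin for 5 (28.3% of all genes). Either Krt1-/- tissue was highest for 131 barrier genes (70.1%, against 43.3% of all genes). The lists were chosen with earlier results of these data known, so part of this excess could follow from that choice, which was not tested.

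**Figure D3:**
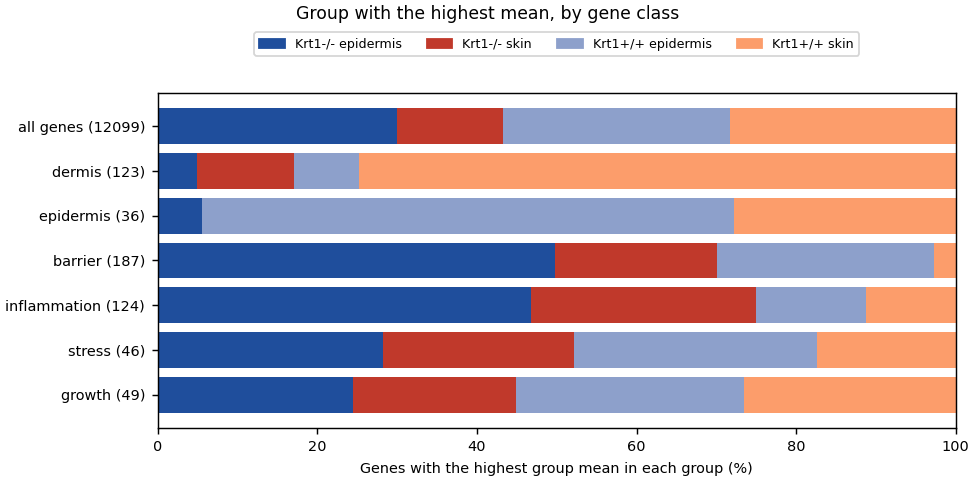
Each bar gives, for all genes or for one class of lists (number of genes in brackets), the percentage of genes whose highest group mean lay in each of the 4 groups. Krt1-/- epidermis holds 49.7% of barrier and 46.8% of inflammation genes against 29.9% of all genes, and Krt1-/- skin holds 20.3% and 28.2% against 13.4%. The lists were chosen with earlier results of these data known.

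Most early suprabasal and cornified envelope genes were not called, and those that were lay higher in epidermis. Krt10 was at 14.16, 14.10 and 13.92 in skin and at 13.88, 13.84 and 14.02 in epidermis, with overlap between the tissues. It differed by 0.15 (95% confidence interval −0.27 to 0.56, adjusted p = 0.574). Loricrin (Lor) differed by 0.22 (−0.15 to 0.59), and involucrin (Ivl) by −0.01 (−0.37 to 0.35). The other Ivl probe gave −1.19 (adjusted p = 0.00398). Of 16 cornified envelope genes 5 were higher in epidermis and none in skin (median −0.35). The largest value towards skin was 0.91 for Tchhl1 (adjusted p = 0.105). Tgm3, the transglutaminase of late differentiation, was at 8.85, 8.78 and 8.05 in epidermis and at 5.92, 5.24 and 4.80 in skin, 9.45-fold higher in epidermis (adjusted p = 8.01e-05). Scel, sciellin, was 1.77-fold and Cstb, cystatin B, 1.61-fold higher in epidermis. Scel lost its call without epidermis replicate 1 or 3 or skin replicate 2 (adjusted p = 0.0751 to 0.0895), and the list's count was 2 without epidermis replicate 1 and 3 without epidermis replicate 2 or skin replicate 3. Of 13 suprabasal genes Krt1, Calm5 and Them5 were higher in epidermis, and 5 were without epidermis replicate 3. Calm5, a calmodulin-like protein of differentiating keratinocytes, was 3.04-fold higher (−1.60), with −1.61 in Krt1+/+ mice. Them5, a thioesterase, was 1.73-fold higher and lost its call without replicate 1 or 2 of either tissue (0.0642 to 0.0983).

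Small proline-rich and late cornified envelope genes did not move as 1 family. Of 14 small proline-rich genes, Sprr2h and Sprr2f were higher in Krt1-/- skin and none in epidermis (median 0.03). The windows of Sprr2h, which was called, and Sprr2e, which was not, are printed because they lie in 1 gene cluster and share an AP-1 site, in capitals, a motif bound by Fos and Jun proteins. Sprr2h lies at chr3:92385435-92385734, plus strand, and Sprr2e at chr3:92351893-92352192, plus strand, from the same source and with the same length as above.
Sprr2h: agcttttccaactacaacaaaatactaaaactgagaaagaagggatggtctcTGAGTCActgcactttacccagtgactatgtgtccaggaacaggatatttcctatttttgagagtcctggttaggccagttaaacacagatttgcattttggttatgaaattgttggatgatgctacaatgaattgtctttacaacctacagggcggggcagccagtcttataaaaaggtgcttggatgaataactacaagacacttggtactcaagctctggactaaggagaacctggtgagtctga
Sprr2e: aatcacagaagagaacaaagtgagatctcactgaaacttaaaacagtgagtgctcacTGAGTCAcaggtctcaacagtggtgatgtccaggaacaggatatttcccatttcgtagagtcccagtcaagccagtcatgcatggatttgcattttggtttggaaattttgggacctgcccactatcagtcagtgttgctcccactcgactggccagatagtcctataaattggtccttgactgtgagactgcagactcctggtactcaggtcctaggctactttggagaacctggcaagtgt
The AP-1 motif TGANTCA, searched on both strands, occurred in 9 of 12 small proline-rich genes with a window (75.0%) and in 2425 of all 27025 genes with a window (8.97%), and in none of 11 late cornified envelope 1 genes. Most of the 9 are Sprr2 genes with much alike windows and a site starting at base 53 to 58, so they do not count as independent genes. The E-box occurred in 3 of the 12 small proline-rich windows (25.0%) and the AP-1 motif in 1 of the 19 muscle windows (5.26%). The letters TG can belong to both motifs at once, and each was counted on its own.

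Sprr2h was at 12.28, 11.71 and 11.98 in Krt1-/- skin and at 10.37, 10.14 and 10.12 in Krt1-/- epidermis, without overlap. It was 3.44-fold higher in skin (1.78 ± 0.19, adjusted p = 1.23e-05), while in Krt1+/+ mice it was lower in skin (−2.93), and the balanced contrast was −0.58. Sprr2e was at 11.77, 11.35 and 10.82 in skin and at 11.45, 11.13 and 11.45 in epidermis, which overlap (−0.03, 95% confidence interval −0.56 to 0.50, adjusted p = 0.939). Sprr2f was 2.09-fold higher in skin and lost its call without skin replicate 1 or epidermis replicate 2 (adjusted p = 0.0564 and 0.0525). Of 12 late cornified envelope 1 genes, 6 were higher in Krt1-/- skin and Lce1e was higher in epidermis (median 0.40). Lce1g was at 11.68, 11.52 and 11.71 in skin and at 10.13, 8.93 and 9.25 in epidermis (4.59-fold, adjusted p = 5.07e-05). In Krt1+/+ mice 9 of the 12 were higher in epidermis and none in skin, with Lce1g at −3.46, and in the balanced contrast none was higher in skin. Without epidermis replicate 3 the late cornified envelope 1 count towards Krt1-/- skin was 3. None of the 5 measured Lce3 genes passed the test. Lce6a, a related gene on the same list, was higher in epidermis (1.80-fold), a call lost without replicate 1 of either tissue, epidermis replicate 2 or skin replicate 3 (0.0607 to 0.165). Lce3f differed by 0.41 (−0.24 to 1.06).

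Of 25 barrier lipid genes 7 were higher in epidermis and 1 in skin (median −0.17). Alox12b, a lipoxygenase that processes ceramides, was 3.46-fold higher in epidermis, Sdr9c7, which acts on the same lipids, 2.91-fold, Cers3, a ceramide synthase, 2.43-fold, and Elovl4, an elongase of very long fatty acids, 1.96-fold. The count towards epidermis was 4 without epidermis replicate 2. Sptlc3, of the first step of ceramide synthesis, was 2.20-fold higher in skin. Of 15 cholesterol genes 5 were higher in epidermis, including Cyp51 (1.92-fold), a count of 2 without epidermis replicate 2 and 3 without skin replicate 3, and Idi1 (6.23-fold) and Insig1 (2.13-fold) were higher in skin. Of 12 desmosome genes Dsc3, a desmocollin, was 4.68-fold and Pkp1, plakophilin 1, 1.89-fold higher in epidermis, and Dsg1a was higher there by at least 1.52-fold. Perp, a desmosomal membrane protein, was 3.57-fold higher in skin, and Tjp1, the tight junction scaffold, 5.04-fold. Of 11 tight junction genes Tjp3 and Marveld3 were higher in epidermis and Tjp1 in skin, with 1 towards epidermis when any Krt1-/- array was left out, and none of 4 connexins passed. Idi1, Perp and Tjp1 each had a Krt1+/+ difference of the opposite sign (−3.62, −3.84 and −3.03).

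Of 23 protease inhibitors 9 were higher in epidermis and 3 in skin (median −0.32). Serpinb2 (3.64-fold), Serpinb3c (3.54-fold) and Serpinb3a (2.14-fold), which are intracellular serpins, were higher in epidermis, and all 9 were called so in the balanced contrast. The count was 4 without skin replicate 3, which took the calls of Serpinb2 and Serpinb3a (adjusted p = 0.0603 and 0.0576), and 5 without epidermis replicate 1. Serpinb3a also lost its call without epidermis replicate 1 or skin replicate 2 (0.0555 and 0.0548). Stfa3, a stefin, Spink5, the inhibitor of kallikreins, and Wfdc21 were higher in Krt1-/- skin by 3.85-fold, 2.09-fold and 2.40-fold. Spink5 lost its call without epidermis replicate 2 (0.0605). In Krt1+/+ mice these 3 had differences of −5.51, −4.90 and −4.33. Of 17 proteases, Klk13 (3.42-fold) and Klk10 (3.48-fold) were higher in epidermis and Klk7, a kallikrein that sheds corneocytes, was higher in skin (1.48-fold). Klk10 lost its call without epidermis replicate 3 or skin replicate 3 (0.0807 and 0.1).

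Of 124 measured inflammation genes, 20 (16.1%) were higher in Krt1-/- skin, 23 (18.5%) were higher in Krt1-/- epidermis and 81 were not called (median −0.18). Neither share exceeded that of all genes (19.3% and 20.1%). The counts were 17 and 34 without skin replicate 1, and 14 and 24 without epidermis replicate 2. By group means 58 (46.8%) were highest in Krt1-/- epidermis and 35 (28.2%) in Krt1-/- skin, against 29.9% and 13.4% of all genes. These lists, too, were chosen with earlier results of these data known, which could account for part of the excess. The balanced contrast called 15 of the 20 and 19 of the 23 in the same direction (62.9% and 62.7% over all genes). It called 2 of the 20 in the opposite one (172 of 2341 over all genes called towards skin).

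Chemokine genes towards skin included those of vessels and stroma. Of 20 chemokines 6 were higher in skin and 3 in epidermis (median 0.11). Ccl21a, a chemokine of lymphatic vessels, was 10.8-fold higher in skin, Ccl9 9.44-fold, Cxcl12, a stromal chemokine, 4.20-fold, and Ccl11, eotaxin, 3.93-fold. Ccl7 was at 9.42, 5.75 and 5.76 in skin, so its 4.93-fold difference holds 1 high array, replicate 1. Without it the difference was 2.11-fold, and without epidermis replicate 1 or 2 it lost its call (adjusted p = 0.0618 and 0.0676). Cxcl14, which is made by normal epidermis, was 3.33-fold higher in epidermis, Cxcl16 2.51-fold and Ccl20, an attractant of dendritic cells, 2.42-fold. Among 13 antimicrobial genes, Lyz2, lysozyme of myeloid cells, was 9.44-fold, Camp 2.84-fold and Lcn2 2.22-fold higher in skin, and Pglyrp4 was 2.93-fold higher in epidermis. Lcn2 lost its call when any of the 6 Krt1-/- arrays but skin replicate 3 was left out (0.0534 to 0.167), and the antimicrobial count towards skin was then 2 or 3. Without skin replicate 1 the antimicrobial counts were 3 towards skin and 5 towards epidermis. Myeloid and vessel markers moved with these genes (the macrophage median was 0.89 and the endothelial median 2.92), and their part in the differences was not tested.

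The interleukin 1 family had members on both sides. Of 20 genes of this family and the inflammasome, 5 were higher in epidermis and 4 in skin (median −0.21). These counts lie near the shares of all genes (20.1% and 19.3%). The count towards skin was 2 without epidermis replicate 2 or 3 or skin replicate 1, and that towards epidermis was 3 without epidermis replicate 3 or skin replicate 2 or 3. Il1f8, one of the interleukin 36 cytokines, was at 10.88, 9.75 and 10.35 in epidermis and at 9.32, 8.99 and 8.45 in skin (2.65-fold, adjusted p = 0.00361). Il1f6, another interleukin 36 gene, was at 6.90, 6.59 and 7.25 in epidermis and at 9.08, 7.92 and 8.32 in skin (2.88-fold higher in skin, adjusted p = 0.000442). In Krt1+/+ mice both were lower in skin (−3.64 for Il1f8 and −3.25 for Il1f6), and so they were in the balanced contrast (−2.52 and −0.86). Il1a was 1.98-fold, Pycard, the inflammasome adaptor, 2.24-fold and Gsdmc, a gasdermin, 3.61-fold higher in epidermis, and Il1a lost its call without epidermis replicate 1 or 3 or skin replicate 2 or 3 (0.134 to 0.153). With its probe kept, Gsdmc stayed called when any Krt1-/- array was left out. With the probe chosen again in each fit it gave −0.01 without epidermis replicate 2 and 0.26 without Krt1+/+ skin replicate 2, neither of them called. Gsdmd, the gasdermin cleaved by inflammatory caspases, was 3.46-fold higher in skin. Il1b was at 7.03, 6.52 and 5.13 in skin and at 7.59, 6.62 and 7.49 in epidermis, with overlap, and failed the test (adjusted p = 0.0594, with a 95% confidence interval of −1.86 to −0.15 for the difference).

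Among 11 other keratinocyte cytokines, Tgfb1 was 3.32-fold higher in epidermis (−0.30 in the balanced contrast, not called), as were Il34 and Il23a, and Csf1, a macrophage growth factor, was 2.70-fold higher in skin (median 0.07). Il23a lost its call without epidermis replicate 1 or 3 or skin replicate 2 or 3 (adjusted p = 0.126 to 0.161), and Il34 without any epidermis array or skin replicate 3 (0.0503 to 0.122). Of 19 differentiation transcription factors 6 were higher in epidermis, including Cebpa (4.34-fold) and Ovol2 (2.85-fold), and Notch1 (2.05-fold) and Prdm1 (at least 1.41-fold) were higher in skin (median −0.19), though neither was called in the balanced contrast (0.10 and −0.25). Of 16 AP-1 and immediate early genes, Jund (4.15-fold), Myc (2.70-fold) and Junb (2.30-fold) were higher in epidermis and Klf6 in skin (median 0.09). In the balanced contrast Myc was called (−0.72), whereas Jund and Junb were not (−0.35 and −0.41). Klf6 lost its call without replicate 1 of either tissue or epidermis replicate 2 (adjusted p = 0.0586 to 0.0757). Fos and Jun did not pass (0.39 and 0.05). Without skin replicate 3 the transcription factor count towards epidermis was 3 and the cytokine count 1. The cytokine count was also 1 without epidermis replicate 3 and 5 without skin replicate 1.

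The alarmins Il18, Il33 and Tslp did not pass the test between the Krt1-/- tissues. Il18 was at 9.88, 9.70 and 9.80 in skin and at 10.81, 9.48 and 10.09 in epidermis. It differed by −0.33 (95% confidence interval −0.99 to 0.33, adjusted p = 0.414), whereas in Krt1+/+ mice its difference was −3.31. The 2 tissue differences were unequal by limma's test (adjusted p = 0.000182), which also carries the difference between the array sets. Il33 was at 10.63, 9.71 and 8.99 in skin and at 9.64, 10.03 and 10.26 in epidermis (−0.20, −1.16 to 0.76, adjusted p = 0.752). Tslp was at 8.85, 6.77 and 7.34 in skin and at 7.05, 5.88 and 7.77 in epidermis (0.76, −0.26 to 1.78, adjusted p = 0.224). The intervals of Il33 and Tslp each include a 2-fold difference. On the Krt1+/+ arrays Il33 averaged 4.98 in skin and 5.18 in epidermis, and Tslp 4.35 and 4.30. Both were higher in Krt1-/- than in Krt1+/+ within each tissue (adjusted p at most 0.00113), a comparison that also crosses the array sets. A set difference that adds equally to all arrays of a set enters the 2 genotype comparisons with opposite signs.

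**Figure D4:**
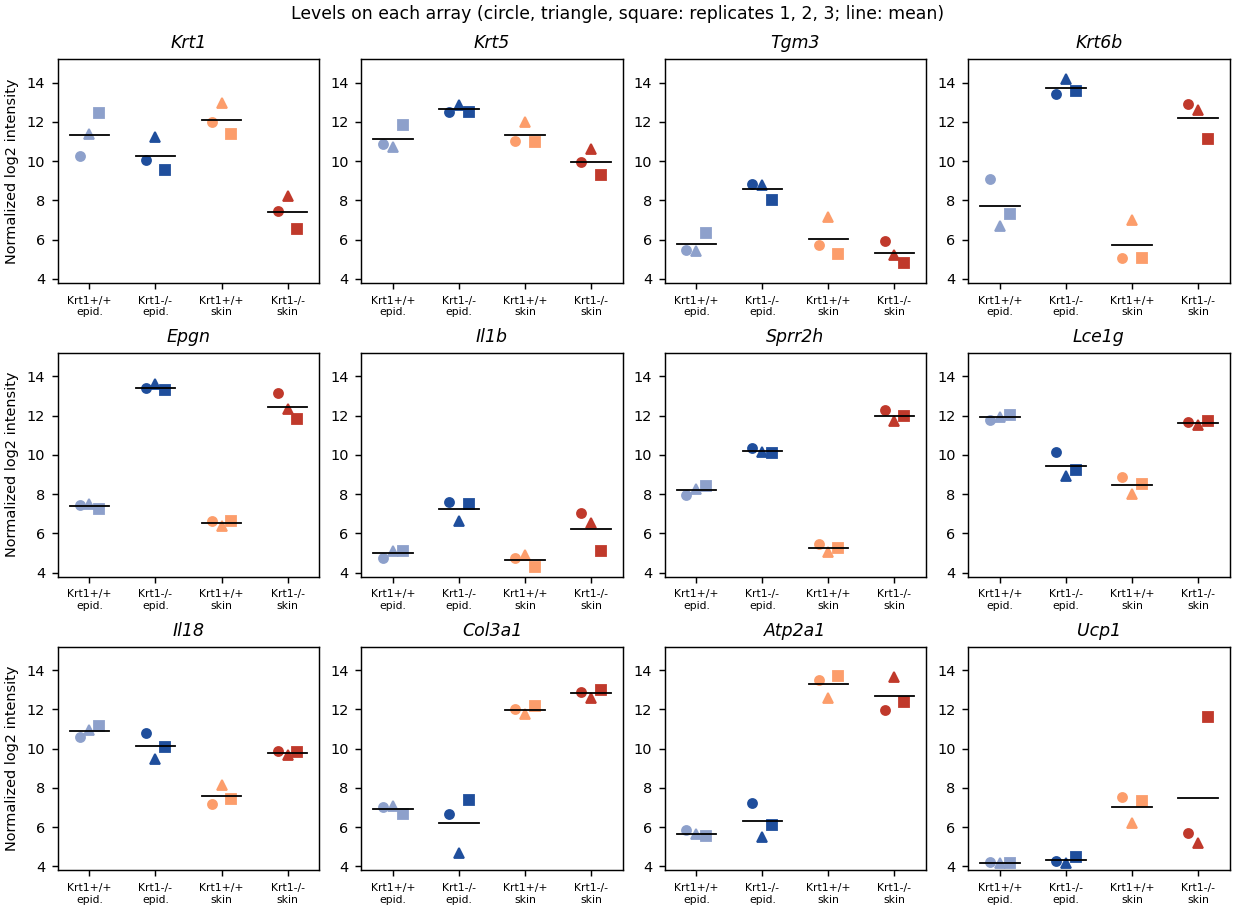
Normalized log2 intensity of 12 genes on each of the 12 arrays, with 1 panel per gene, 1 column per group, marker shapes for replicates and a line at the group mean. Krt1 is lowest in Krt1-/- skin (mean 7.41), Col3a1 and Atp2a1 separate skin from epidermis in both genotypes, and Ucp1 is high on 1 array of Krt1-/- skin (11.62).

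Krt6a, Krt6b, Krt16, S100a8 and Epgn were higher in Krt1-/- than in Krt1+/+ within each tissue (adjusted p at most 0.000379). These comparisons again cross the array sets, whose additive difference has opposite signs in the 2 tissues. Such a rise in both tissues was called for 3 of 9 genes of the stress and wound keratin list and 2 of 12 S100 genes. It was called for 2 of 11 genes of the epidermal growth factor receptor and its ligands. Other lists held 12 of 14 (small proline-rich), 10 of 25 (barrier lipid), 10 of 29 (interferon response) and 0 of 12 (late cornified envelope 1). The rise was thus not particular to the keratin, S100 and growth factor lists, and its share over all genes is not given here. Between the Krt1-/- tissues, Krt79 (2.53-fold) and Krt80 (2.46-fold) were the called members of that keratin list, both higher in epidermis. Krt6a, Krt6b, Krt16 and Krt17 (adjusted p = 0.878) were not called. Krt6b was at 12.92, 12.63 and 11.11 in skin and at 13.42, 14.19 and 13.56 in epidermis. The arrays did not overlap, but the difference of −1.50 failed the test (adjusted p = 0.0789, with a 95% confidence interval of −2.88 to −0.12). On the Krt1+/+ arrays Krt6b averaged 5.71 in skin and 7.70 in epidermis, S100a8 7.82 and 7.23, and Epgn 6.54 and 7.38. Krt6a differed by −1.10 (adjusted p = 0.0502), Krt16 by −0.37 and S100a8 by −0.63. Skin replicate 3 was the lowest array for Krt6a, Krt6b, Krt16, S100a8 and Il1b, and without it Krt6b differed by −0.95 and S100a8 by −0.06. Epgn, which encodes the growth factor epigen, was at 13.17, 12.36 and 11.80 in skin and at 13.38, 13.59 and 13.30 in epidermis, 1.97-fold higher in epidermis (adjusted p = 0.0105). On its receptor and ligand list 3 genes were higher in epidermis and 2 in skin (median −0.44), with 1 towards epidermis without epidermis replicate 2 or skin replicate 3. Of 12 S100 genes, S100a14 (2.48-fold), S100a16 (2.01-fold) and S100a11 (1.80-fold) were higher in epidermis, and S100a4, a gene of fibroblasts and myeloid cells, was 2.89-fold higher in skin. The antiprotease Slpi differed by 0.31 (−0.36 to 0.97).

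Of 29 interferon response genes, Ifi35 (2.53-fold), Psmb8 (2.03-fold) and Tap1 were higher in epidermis and Ifih1 (at least 1.87-fold) and Irf1 (2.09-fold) in skin (median −0.07). Without epidermis replicate 2 the counts were 6 towards epidermis and 1 towards skin. The balanced contrast called the same direction for the first 3 and for Irf1, not for Ifih1 (0.42). Of 13 heat shock genes 6 were higher in skin and none in epidermis (median 0.47). Hspa1b, an inducible chaperone, was 5.77-fold higher in skin and Cryab, a small heat shock protein abundant in muscle, higher by 1.85 on the log2 scale, but of the 6 the balanced contrast called only Cryab in the same direction. Among 17 targets of the oxidative stress factor NRF2, Txnrd1 (5.35-fold) and Cat (2.80-fold) were higher in skin, and Nqo1 (2.85-fold) and Gsta4 (2.04-fold) in epidermis. The list held 3 genes in each direction (median −0.10), and 1 towards skin without epidermis replicate 3 or skin replicate 3. In the balanced contrast Txnrd1 was at −0.04, not called, and Cat at 0.88. Xist was high and the 3 measured Y-linked genes low on Krt1-/- skin replicate 3 and Krt1-/- epidermis replicate 1, with the reverse on the other Krt1-/- arrays, and none of these 4 sex-linked genes passed the test. Cat, catalase, was at 8.53, 8.74 and 10.41 in skin, with replicate 3 highest, and without that array it lost its call (adjusted p = 0.0571), as it did without Krt1-/- epidermis replicate 2 or 3 (0.0564 and 0.0562). Gsta4 lost its call without Krt1-/- epidermis replicate 2 or Krt1-/- skin replicate 3, Irf1 without Krt1-/- epidermis replicate 2, and Tap1 without Krt1-/- epidermis replicate 1 or Krt1-/- skin replicate 2 (adjusted p = 0.0535 to 0.0601).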

How the data were processed

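Per the labels' protocols, RNA was extracted with Trizol and RNeasy columns with DNase treatment, amplified to biotin-labelled cRNA with a MessageAmp kit and hybridised to one-colour Illumina bead arrays. The non-normalized table that the authors deposited gives an average signal intensity and a detection p-value per probe and array, and it was the source of every value. The authors' deposited normalized table holds the same intensities in the same rank order, with a median of 99.2 on every array, and was used as an alternative. The sources used here do not name its normalization. No sample column was left unused (0). The total signal of an array is no depth, and the 3 arrays per group limit the precision.

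Background was corrected and arrays were quantile normalized with neqc (offset 16, limma 3.58.1, R 4.3.3). Of 45281 probes, 21712 had a detection p-value under 0.05 on at least 3 arrays, and 18687 of these carried 1 gene. The platform annotation was updated to current symbols through the gene identifier (34807 probes) or an accession (11), 67 probes kept the annotated symbol, and 18 probes had several genes and 10378 none. The probe with the highest mean stood for each of 12099 genes, of which 4531 had more than 1 probe. Krt2 and Flg are not analysed here. A group with no detected array was set at its detection limit and the fold is given as "at least".

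One limma fit over the 12 arrays, with Benjamini-Hochberg adjustment over all genes, gave the Krt1-/- tissue contrast, the Krt1+/+ contrast, their mean and their difference. Replicate numbers did not pair the samples. Deviations from the Krt1-/- group means correlated for skin replicate 1 with epidermis replicate 3 (0.254) and skin replicate 3 with epidermis replicate 1 (0.247). Replicate 2 of both tissues gave 0.279, and all other pairs gave −0.181 to −0.083. Whether these arrays shared animals was not tested, and the fit takes no such pairing into account. Intensities of 12099 genes were simulated for the Krt1-/- contrast with 200 genes changed, independent noise and no array set difference. Of these, 57 of 100 genes changed by 1 on the log2 scale and 97 of 100 changed by 2 were recovered, with 7 false calls. In the data 39.5% of genes were called and tissue is confounded with array set. The simulated rates thus check the code and are not error rates of the measured contrast. Named genes were the 12 largest non-overlapping differences in each direction, the 5 largest each way for the difference of contrasts, the 4 members of each of 41 lists with the smallest p and a fixed set of keratinocyte and cytokine genes. Further list members and the brown adipocyte genes were named after their values were seen. The members and lists were chosen with earlier results of these data known. Alternatives were no background correction, median centring, other detection filters, other probe rules, a trended variance, a fold minimum, a replicate block, Krt1-/- arrays alone and each array left out.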

Additional observations from a re-analysis of the deposited data

Results flagged for a closer look

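The tissue difference in Krt1-/- mice differed from that in Krt1+/+ mice for 3739 genes (30.9%) by limma's test of the difference, in a contrast that adds the difference between the 2 array sets from both genotypes. Given as the Krt1-/- minus the Krt1+/+ difference on the log2 scale, the largest towards Krt1-/- skin were Stfa3 (7.46), Rpl22l1 (6.70), Top2b (6.67), Lypla1 (6.54) and Mxi1 (6.31). The other kept Lypla1 probe gave −1.02 in the Krt1-/- contrast, opposite to the probe used. The largest towards Krt1-/- epidermis were Selenow (−6.42), Ptms (−6.28), Bcat2 (−5.37), Rbp2 (−5.03) and Vat1 (−4.41). Among keratins and barrier genes the difference was −3.63 for Krt1, −2.88 for Krt5, 1.22 for Krt16, 1.64 for Ivl and 2.48 for Lce3f. It was 2.98 for the alarmin Il18 and 1.69 for the antiprotease Slpi. The dermal genes Col1a1 (−4.25) and Myh8 (−2.11) also differed, although both were called higher in skin in each genotype. Within each genotype tissue and array set cannot be told apart.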

How the results depend on the processing

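With each probe tested on its own, 7725 probes were called in the Krt1-/- contrast (4447 higher in epidermis), 7920 in the balanced contrast (4796) and 6075 in the difference of contrasts (3365 below). More features were tested there. Tested against a change of at least 1.5-fold, the counts were 1371 (973 higher in skin and 398 in epidermis), 1185 (936 and 249) and 1471 (883 above and 588 below). With the replicate block, whose numbers did not pair the samples (correlations −0.152, 0.279 and −0.083), the counts were 4654, 5026 and 3652. Leaving out each array gave 3796 to 4876, 4420 to 5158 and 3123 to 3682. Krt1 ran from −3.28 to −2.39 when an array was left out and from −3.05 to −2.37 under the other alternatives, and it was called in each. Among called genes the direction changed for Lypla1 and Gsdmc, while genes that were not called could change sign too, such as Slpi (−0.14 to 0.65) and Il33 (−0.63 to 0.19). Lypla1 turned to −1.05 with neqc within the Krt1-/- arrays, to −1.02 with only those arrays and ranged from −1.03 to 3.02 when an array was left out, since its other probe became the brightest in some of these fits. Gsdmc ranged from −2.11 to 0.26, the latter without Krt1+/+ skin replicate 2. Without Krt1-/- epidermis replicate 2 it lost its call at −0.01 with the probe chosen again, and with its probe kept it stayed called. The list medians between −0.16 and 0.11 for small proline-rich, late cornified envelope 3, connexin, nerve, interferon, cytokine, chemokine and AP-1 genes, and those of respiratory chain and sex-linked genes, changed sign under at least 1 alternative. Of the other named-gene values, 96 lost and 20 gained a call while 2067 did not move across the threshold, and 67, 13 and 2302 did so with an array left out. The array set difference, the doubt over the labels of the Krt1-/- epidermis arrays and the 3 arrays per group all limit these results.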
